A study of Mus musculus with 7 samples.

Results

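The genes described here encode collagen IV, laminins, nidogens, and perlecan of the basement membrane, and netrin-4, a protein that binds laminin. They were taken as the rows of the gene count matrix whose name was exactly *Col4a1*, *Col4a2*, *Lama4*, *Lamb1*, *Lamb2*, *Lamc1*, *Nid1*, *Nid2*, *Hspg2*, or *Ntn4*. All 10 names were found, each once, among 55401 genes, and all 10 passed the filter on low counts that 16429 genes passed. RNA-Seq was performed on 7 samples of knee cartilage and subchondral bone from male C57BL/6J mice whose medial meniscus was destabilized by surgery (DMM, a model of osteoarthritis) at 10 weeks of age and whose tissue was taken 2 weeks later. By their labels 4 samples were WT and 3 were *Trpc1-/-*, and each label carries a mouse number. By the Methods the right knee was the operated one, and every sample pooled the tissue of several mouse knees. The Methods give the group sizes the other way round, and the labels were used here. The *Trpc1-/-* allele removes an exon of the channel gene in every cell of the mouse, so that a difference cannot be assigned to chondrocytes. No sham or unoperated sample was analysed here.

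Basement membranes are thin sheets of matrix on which endothelium and epithelium rest and which wrap fat cells, muscle fibers, peripheral nerve, and the smooth muscle and pericytes of vessels. Laminins, trimers of an α, a β, and a γ chain, form a first network at the cell surface, collagen IV forms a second one that is covalently cross-linked, and nidogens and the heparan sulfate proteoglycan perlecan tie both together. Articular cartilage has no continuous basement membrane, but chondrocytes place perlecan, and to a lesser extent collagen IV, laminin, and nidogen, in the pericellular matrix around the cell, whereas the vessels of bone and marrow supply the same proteins in subchondral bone.

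*Col4a1* and *Col4a2* lie head to head on chromosome 8, the arrangement for which the collagen IV genes are known. In GENCODE M21 (GRCm38), *Col4a1* runs on the minus strand from 11198423 to 11312826 and *Col4a2* on the plus strand from 11312805 to 11449287, so that their first exons overlap by 22 bases. Those bases are shown because both collagen IV transcripts begin at their edges. The stretches before *Ntn4*, *Hspg2*, and *Nid1* are shown because these members had, in this order, the smallest unadjusted *P*, the largest difference, and the smallest difference between the genotypes. Each is the part of the RefSeq promoter window of GRCm38.p6 (250 bases before to 50 bases after the start) that carries no annotated exon, on the plus strand. The *Ntn4* stretch ends where the long transcript starts and lies in an intron of a shorter transcript that begins upstream. Capitals mark the GC box GGGCGG or its reverse complement CCGCCC.
*Col4a1* and *Col4a2*, chr8:11312805-11312826: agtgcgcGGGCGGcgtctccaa
*Ntn4*, chr10:93640799-93641048: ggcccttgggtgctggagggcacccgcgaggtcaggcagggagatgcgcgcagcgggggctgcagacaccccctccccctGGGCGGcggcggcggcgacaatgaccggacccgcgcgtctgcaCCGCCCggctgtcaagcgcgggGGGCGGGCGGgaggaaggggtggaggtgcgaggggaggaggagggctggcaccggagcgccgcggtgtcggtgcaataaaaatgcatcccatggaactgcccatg
*Hspg2*, chr4:137468553-137468768: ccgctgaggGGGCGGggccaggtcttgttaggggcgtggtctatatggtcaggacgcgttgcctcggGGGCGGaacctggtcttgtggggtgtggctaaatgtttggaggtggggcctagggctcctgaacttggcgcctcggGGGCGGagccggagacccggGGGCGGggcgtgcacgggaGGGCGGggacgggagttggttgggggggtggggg
*Nid1*, chr13:13437352-13437550: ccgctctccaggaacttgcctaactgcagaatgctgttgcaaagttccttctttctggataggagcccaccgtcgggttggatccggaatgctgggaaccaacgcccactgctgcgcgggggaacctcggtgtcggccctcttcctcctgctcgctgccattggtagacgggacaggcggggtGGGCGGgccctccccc

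RefSeq windows were matched for 7 of the 10 members. Counted over the whole 300 bases, on both strands and with overlapping matches counted separately, *Hspg2* held 5 GC boxes, *Ntn4* held 4, *Col4a2* held 3, *Lamb1* held 2, and *Col4a1* and *Nid1* held 1 each. *Lamb2* held 0. A GC box was thus present in 6 of the 7 windows, and in 35.7% of all 32851 promoter windows of the same length. The windows of *Col4a1* and *Col4a2* overlap, and the 1 box of *Col4a1*, in the bases printed above, was counted for both, so the 7 windows are not all separate. CCAAT, read on both strands, was found in the windows of *Col4a1*, *Col4a2*, *Lamb1*, and *Nid1* and in 37.4% of all windows, and TATAAA in 0 of the 7 and in 13.6% of all. The *Lamb2* window also differed in base composition, with 44.0% G and C against 63.7% to 74.0% in the other 6 windows and a median of 52.7% over all. These matches describe letters in a window and no site of binding was measured.

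Depth was high for all members. The counts on genes summed to between 52142451 and 118254070 per sample, and the lowest count of any member in any sample was 1138 (*Nid2* in WT replicate 1). *Trpc1* itself had 4.82, 4.54, 4.76, and 4.32 CPM in WT replicates 1 to 4 and 3.34, 3.78, and 3.03 CPM in *Trpc1-/-* replicates 1 to 3, where CPM is the count scaled to a common library size by edgeR's TMM method, and the counts cover the whole gene, including exons the allele leaves in place. WT replicate 1 stood apart: it was the shallowest library, its summed CPM of 10 skeletal muscle markers was 1290 against 66.6 to 247 in the other WT samples, and 9 of the 10 members had their highest value in it. The tissue was mixed, as the labels and Methods imply: markers of cartilage, bone, vessels, fat, and red cells were all well above the floor of 3 counts.

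The mean of every one of the 10 members was lower in *Trpc1-/-* than in WT samples, by 8.32% for *Nid1* at one end and 26.1% for *Hspg2* at the other. With edgeR, 0 of the 10 differences passed at an adjusted *P* of 0.05, a level that 0.00% of all genes reached (0 of 16429). At an unadjusted *P* under 0.05, 4 members, *Ntn4*, *Col4a1*, *Nid2*, and *Col4a2*, were lower, as were 5.49% of all genes tested, and 0 were higher, against 4.51% of all. The median log2 fold change (logFC, *Trpc1-/-* against WT) of the members was −0.32, against −0.0088 over all genes, of which 51.9% had a lower mean. DESeq2 called 1 member, *Ntn4*, where it called 0.828% of all genes as lower. In 2 members, *Col4a1* and *Ntn4*, every *Trpc1-/-* value lay below every WT value, as it did in 6.42% of all genes, and in the other 8 the groups overlapped. Without WT replicate 1 the median logFC was −0.18, *Nid1* had a logFC of 0.011, and edgeR called 49 genes overall and 0 members. A sample is a mixture of cell types, so fewer cells that make these proteins and less of their RNA per cell cannot be told apart.

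**Figure D1:**
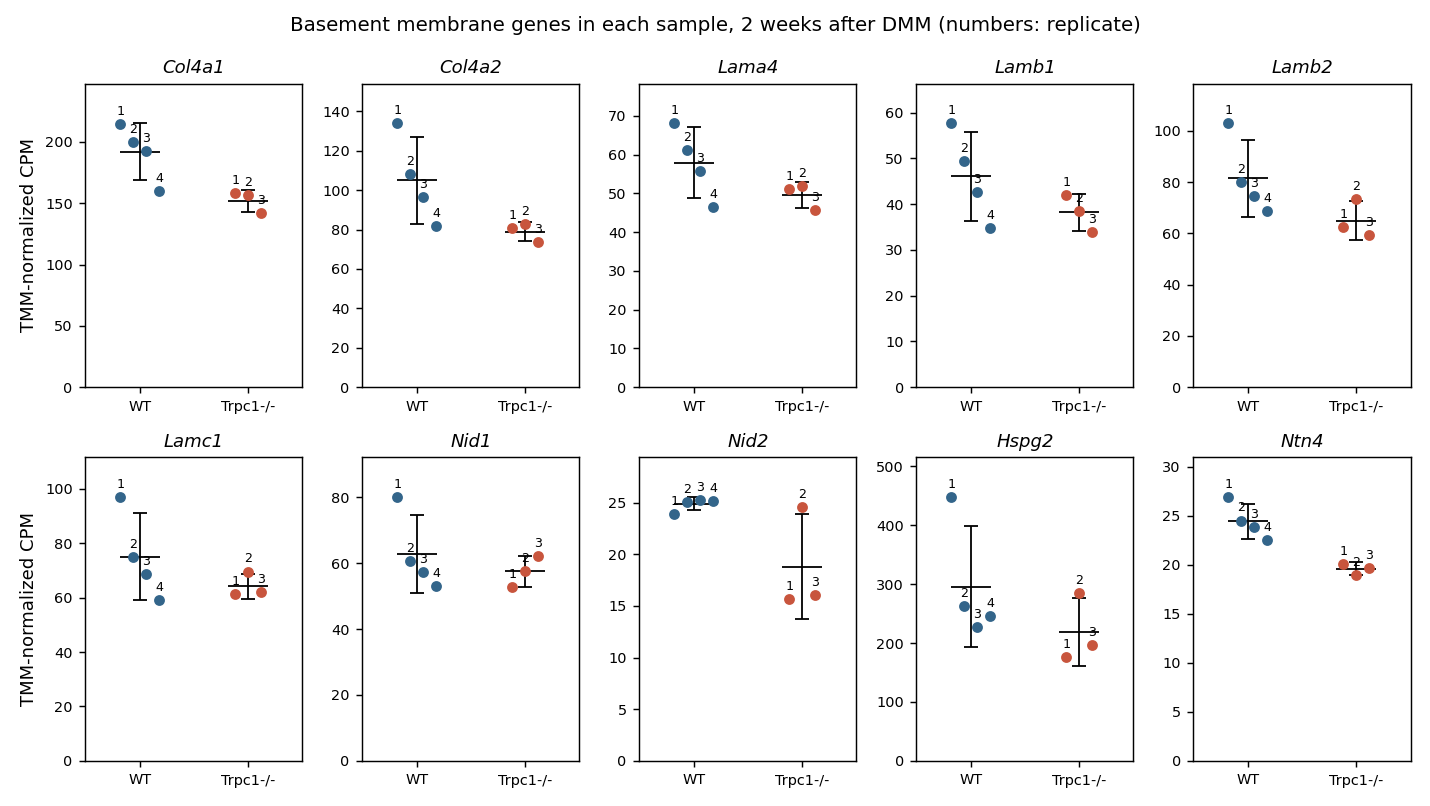
TMM-normalized CPM of each of the 10 genes (y axis, starting at 0) in the 4 WT and 3 Trpc1-/- samples, with the replicate number above each point. Horizontal lines are means and bars are SD. The groups separate for Col4a1 (highest Trpc1-/- sample 158, lowest WT sample 160 CPM) and Ntn4 (20.1 and 22.5 CPM), and WT replicate 1 lies highest for every gene but Nid2.

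The collagen IV genes encode the α1 and α2 chains, which assemble together into the heterotrimer found in nearly every basement membrane. *Col4a1* (ENSMUSG00000031502) had 215, 200, 193, and 160 CPM in WT replicates 1 to 4 and 158, 157, and 142 CPM in *Trpc1-/-* replicates 1 to 3. The groups were separated by a narrow gap, between WT replicate 4 and *Trpc1-/-* replicate 1. Its mean ± SD was 192 ± 23.3 CPM for WT (n = 4) versus 152 ± 9.06 CPM for *Trpc1-/-* (n = 3; logFC −0.34, SE 0.12, adjusted *P* = 0.445 in edgeR). The partner gene *Col4a2* (ENSMUSG00000031503) gave 134, 108, 96.4, and 81.9 CPM in the WT samples and 80.6, 83.0, and 73.6 CPM in the *Trpc1-/-* samples. Here WT replicate 4 lay within the range of the *Trpc1-/-* samples and replicate 1 far above the other WT samples. The difference had a logFC of −0.41 (SE 0.16, adjusted *P* = 0.475).

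*Lama4*, *Lamb1*, *Lamb2*, and *Lamc1* encode the α4, β1, β2, and γ1 chains. The α4 chain is the one made mainly by endothelium, muscle, and fat, γ1 is shared by most laminins, and β1 and β2 take the same place in alternative trimers. For *Lama4* (ENSMUSG00000019846, chromosome 10 from 38965515 to 39110188), the WT samples gave 68.1, 61.2, 55.8, and 46.5 CPM and the *Trpc1-/-* samples 51.0, 51.8, and 45.6 CPM. Levels of *Lamb1* (ENSMUSG00000002900, chromosome 12 from 31265234 to 31329644) were 57.7, 49.4, 42.6, and 34.7 CPM in WT and 42.1, 38.6, and 33.9 CPM in *Trpc1-/-* samples. In both genes WT replicate 4 lay below at least 2 of the *Trpc1-/-* samples. *Lamb2* (ENSMUSG00000052911, chromosome 9 from 108479736 to 108490530) stood at 103, 80.0, 74.5, and 68.6 CPM in WT and at 62.3, 73.6, and 59.2 CPM in *Trpc1-/-* samples, where only replicate 2 reached into the WT range. With *Lamc1* (ENSMUSG00000026478, chromosome 1 from 153218922 to 153332786) it was 97.0, 75.0, 68.8, and 59.2 against 61.2, 69.6, and 62.0 CPM, and all 3 *Trpc1-/-* samples lay within the range of the WT samples. The logFC was −0.23 (SE 0.13) for *Lama4*, −0.27 (SE 0.17) for *Lamb1*, −0.33 (SE 0.15) for *Lamb2*, and −0.22 (SE 0.16) for *Lamc1*. These differences did not pass the test, with adjusted *P* values of 0.560, 0.588, 0.511, and 0.627 in edgeR. Without WT replicate 1 the logFC was −0.14, −0.15, −0.20, and −0.078, in the same order.

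Nidogens bind the γ1 chain of laminin and collagen IV, and both family members are made mainly by mesenchymal cells. Their patterns were unlike each other. *Nid1* (ENSMUSG00000005397) had 80.1, 60.6, 57.4, and 53.1 CPM in WT and 52.9, 57.6, and 62.1 CPM in *Trpc1-/-* samples, and apart from WT replicate 1 the groups covered nearly the same range (logFC −0.13, SE 0.15, adjusted *P* = 0.756 in edgeR). *Nid2* (ENSMUSG00000021806, chromosome 14 from 19751265 to 19811787) was nearly constant in WT samples, at 23.9, 25.1, 25.3, and 25.2 CPM, and stood at 15.7, 24.6, and 16.1 CPM in *Trpc1-/-* samples. *Trpc1-/-* replicates 1 and 3 were thus well below the WT range and replicate 2 was inside it. The logFC of *Nid2* was −0.41 (SE 0.16, adjusted *P* = 0.475). With all samples DESeq2 did not call it either (adjusted *P* = 0.280). Without *Trpc1-/-* replicate 2 it was −0.66 in edgeR, where it did not pass, and −0.64 in DESeq2, which then called it (adjusted *P* = 5.77e-12) among 367 genes. That DESeq2 fit was chosen after seeing the data. It drops the 1 *Trpc1-/-* value inside the WT range and keeps only the close values of replicates 1 and 3, so its small *P* follows from the choice.

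Perlecan, the product of *Hspg2* (ENSMUSG00000028763), is the member that cartilage itself makes in quantity. Its gene gave 448, 263, 228, and 246 CPM in WT replicates 1 to 4 and 176, 285, and 196 CPM in *Trpc1-/-* replicates 1 to 3. WT replicate 1 and *Trpc1-/-* replicate 2 lay far above the other samples of their groups, and with a mean ± SD of 296 ± 102 CPM for WT (n = 4) versus 219 ± 58.2 CPM for *Trpc1-/-* (n = 3) the difference (logFC −0.44, SE 0.28, adjusted *P* = 0.590 in edgeR) did not exceed the spread by the test. The logFC was −0.17 without WT replicate 1 and −0.68 without *Trpc1-/-* replicate 2. The summed CPM of 10 chondrocyte markers was 6020 in *Trpc1-/-* replicate 2 and 3170 and 3420 in *Trpc1-/-* replicates 1 and 3, against 5650 to 5960 in WT. *Trpc1-/-* replicate 2 was therefore the *Trpc1-/-* sample with the highest chondrocyte markers, *Hspg2*, and *Nid2*, and its 8 osteoblast markers, at 19700 CPM, were also above those of replicates 1 and 3, at 12100 and 11700 CPM. It was also highest of its group for *Col4a2*, *Lama4*, *Lamb2*, and *Lamc1*, but not for *Col4a1*, *Lamb1*, *Nid1*, or *Ntn4*. WT replicate 1, the sample with the most *Hspg2*, had chondrocyte markers of 5870 CPM, inside the range of the other WT samples, and osteoblast markers of 23900 CPM, the highest. The part of these marker levels in the *Hspg2* and *Nid2* differences was not tested.

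*Ntn4* (ENSMUSG00000020019, chromosome 10 from 93640681 to 93747207) encodes netrin-4, a secreted protein related to the short arm of laminin β chains that binds laminin γ chains and can open laminin networks. With 26.9, 24.5, 23.8, and 22.5 CPM in WT and 20.1, 18.9, and 19.7 CPM in *Trpc1-/-* samples, it was among the members with the lowest counts and had the narrowest spread in the *Trpc1-/-* group. Each *Trpc1-/-* sample lay below each WT sample. The mean ± SD was 24.4 ± 1.82 CPM for WT (n = 4) versus 19.6 ± 0.635 CPM for *Trpc1-/-* (n = 3; logFC −0.32, SE 0.078, unadjusted *P* = 0.00381 and adjusted *P* = 0.395 in edgeR). DESeq2 gave a logFC of −0.31 and an adjusted *P* of 0.0428. With one sample left out in turn DESeq2 called *Ntn4* in 2 of 7 fits, a set of fits chosen after seeing the data. The 2 were those without WT replicate 1 (adjusted *P* = 0.0201) and without WT replicate 4 (0.0272). Over all genes these 2 fits called 890 and 283, against 294 with all samples. In the other 5 fits the adjusted *P* of *Ntn4* lay between 0.166 and 0.502.

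Centered on its mean over the 7 samples, the members could be compared within and between genotypes. The median of the 10 centered log2 values was 0.44, 0.16, 0.038, and −0.14 in WT replicates 1 to 4 and −0.18, −0.056, and −0.30 in *Trpc1-/-* replicates 1 to 3. WT replicate 4 thus lay near the *Trpc1-/-* samples, and the range within WT was wider than the distance between the group medians. The likeness of 2 profiles was taken as the root mean square difference of their centered log2 CPM over the 7 samples. By this measure the closest pairs were *Col4a1* with *Lama4* (0.071) and *Lamb1* with *Lama4* (0.072), followed by *Lamb2* with *Lamc1* (0.078). *Col4a2* was closer to *Lamb2* (0.082) than to its neighbor *Col4a1*. *Nid2* and *Hspg2* were farthest from the rest, at 0.229 and 0.195 from their nearest member, *Lamb2* in both cases.

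**Figure D2:**
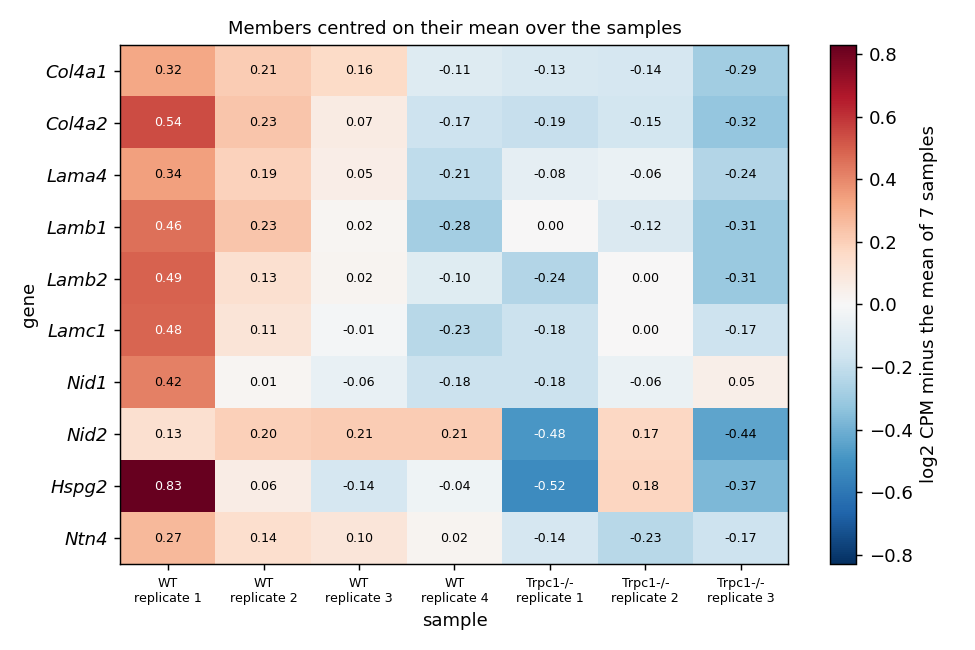
Centered log2 CPM of the 10 members (rows) in the 7 samples (columns). Red cells are above and blue cells below the gene's own mean over all samples, with the value in each cell. WT replicate 1 is red throughout, from 0.13 for Nid2 to 0.83 for Hspg2, and Trpc1-/- replicate 2 is the only Trpc1-/- sample that is clearly red, for Nid2 (0.17) and Hspg2 (0.18).

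To compare genes with each other, CPM was divided by the length of all annotated exons in kilobases. On this scale *Col4a1* had the highest mean level in WT samples, 25.7 ± 3.12 CPM per kb (SD, n = 4), followed by *Hspg2* with 20.7 ± 7.15, *Col4a2* with 15.9 ± 3.32, and *Lamb2* with 13.4 ± 2.48. *Lamc1* (9.07 ± 1.94) and *Nid1* (9.04 ± 1.72) had nearly the same level. *Ntn4* (6.53 ± 0.486), *Nid2* (4.81 ± 0.126), *Lama4* (4.80 ± 0.758), and *Lamb1* (4.65 ± 0.986) were lowest. Neighbors in this order overlapped over the WT samples except at 2 steps, from *Nid1* to *Ntn4* and from *Ntn4* to *Nid2*. The first 4 places were the same in *Trpc1-/-* samples, where *Nid2* (3.63 ± 0.981 CPM per kb, SD, n = 3) came last. With the longest transcript as the length, *Lama4* and *Lamb1* reached 9.58 and 7.97 CPM per kb in WT and ranked above *Ntn4* and *Nid2*, since their longest transcripts, of 6046 and 5784 bases, are much shorter than their summed exons of 12068 and 9917 bases.

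**Figure D3:**
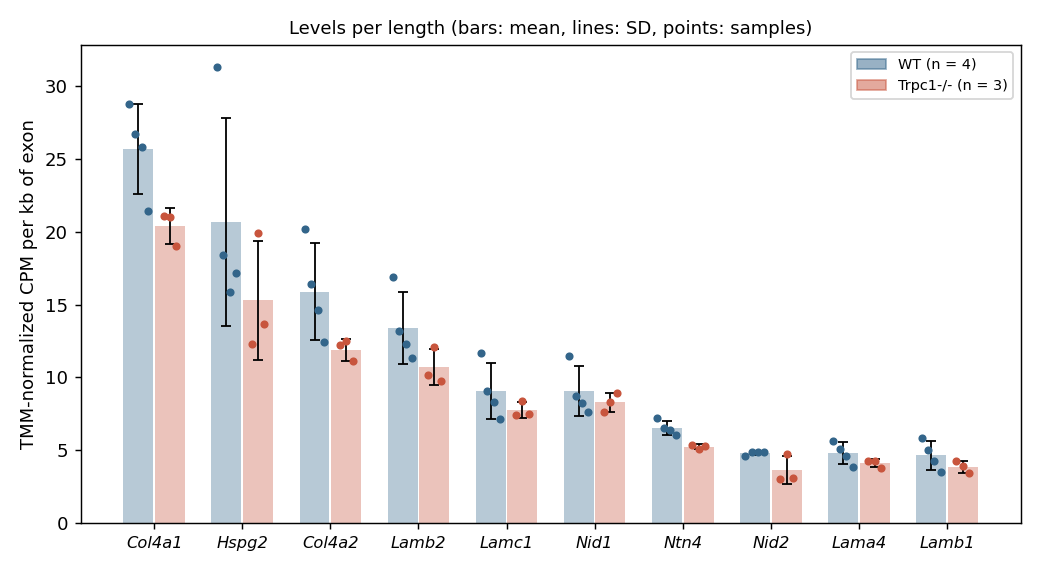
TMM-normalized CPM per kilobase of exon (y axis) of the 10 members, ordered by their WT mean. Bars are group means, lines are SD, and points are the 4 WT and 3 Trpc1-/- samples. Col4a1 and Hspg2 lead in both genotypes, and Nid2, Lama4, and Lamb1 share the lowest WT levels near 5 CPM per kb.

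Ratios of partner chains on the same scale were computed within each sample, where a difference in library size cancels. The ratio of *Col4a1* to *Col4a2* was 1.43, 1.63, 1.77, and 1.73 in WT replicates 1 to 4 and 1.74, 1.67, and 1.71 in *Trpc1-/-* replicates 1 to 3. WT replicate 1 was low, and the 6 other samples lay between 1.63 and 1.77. *Lamb1* to *Lamb2* gave a mean ± SD of 0.346 ± 0.0281 for WT (n = 4) versus 0.362 ± 0.0472 for *Trpc1-/-* (n = 3), and the sum of both to *Lamc1* gave 2.00 ± 0.0511 and 1.87 ± 0.104. *Nid1* to *Nid2* was the most variable ratio, with 2.49, 1.79, 1.69, and 1.57 in WT and 2.52, 1.74, and 2.88 in *Trpc1-/-* samples. The groups overlapped in all 4 ratios, which are given as a description with no test.

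The other genes of the basement membrane also had mostly lower means. Of 31 further components, 26 were tested, 23 had a mean below that of WT, and the median logFC was −0.45. EdgeR called 0 of them, and 6 were lower with an unadjusted *P* under 0.05, against 5.49% of all genes. These were *Fbln1* (logFC −0.57, SE 0.083), which encodes the matrix protein fibulin-1, *Smoc2* (−0.52, SE 0.12), a SPARC-related calcium-binding protein, *Hmcn1* (−0.67, SE 0.18), a very large fibulin-like protein, *Npnt* (−0.71, SE 0.19), a ligand of integrin α8β1, *Col18a1* (−0.44, SE 0.15), the source of endostatin, and the laminin chain *Lamc3* (−0.56, SE 0.24). DESeq2 called *Fbln1*, *Smoc2*, *Hmcn1*, and *Npnt*, against 0.828% of all genes called as lower. Among the 26 tested, the means that were higher were those of *Tinagl1*, *Egfl6*, and *Papln*, with a logFC of 0.19, 0.24, and 0.032 that did not pass the test. *Col4a4*, *Col4a6*, *Lama1*, *Frem1*, and *Frem2* were below the count filter, with at most 109 counts in any sample.

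Receptors and collagen-modifying enzymes were read in the same way. All 11 receptor genes had a lower mean, with a median logFC of −0.21, and edgeR and DESeq2 called 0. *Itga3* (logFC −0.48, SE 0.17), the α chain of a laminin-binding integrin, *Ddr1* (−0.28, SE 0.11), a collagen-binding receptor kinase, and *Itga1* (−0.21, SE 0.083), of the collagen IV-binding integrin, had an unadjusted *P* under 0.05, against 5.49% of all genes lower at that level. The shared β chain *Itgb1* lay between 277 and 323 CPM in WT and between 269 and 305 CPM in *Trpc1-/-* samples (logFC −0.034, SE 0.10). Of the 16 genes for folding, export, and cross-linking, 15 had a lower mean (median logFC −0.26), 6 had an unadjusted *P* under 0.05, and edgeR called 0. The 6 were *Lox* (logFC −0.49, SE 0.10) and *Loxl2* (−0.63, SE 0.15), which oxidize lysines for cross-links, *P3h2* (−0.43, SE 0.089) and *P4ha2* (−0.54, SE 0.11), which hydroxylate prolines, *Plod1* (−0.24, SE 0.10), which hydroxylates lysines, and *Colgalt2* (−0.71, SE 0.18), which adds galactose to them. DESeq2 called all of these but *Plod1*, against 0.828% of all genes called as lower. Most of these enzymes also act on fibrillar collagens, so that their counts are not specific to the basement membrane. Peroxidasin (*Pxdn*), which forms the cross-link between collagen IV molecules, had a logFC of −0.27 that did not pass.

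**Figure D4:**
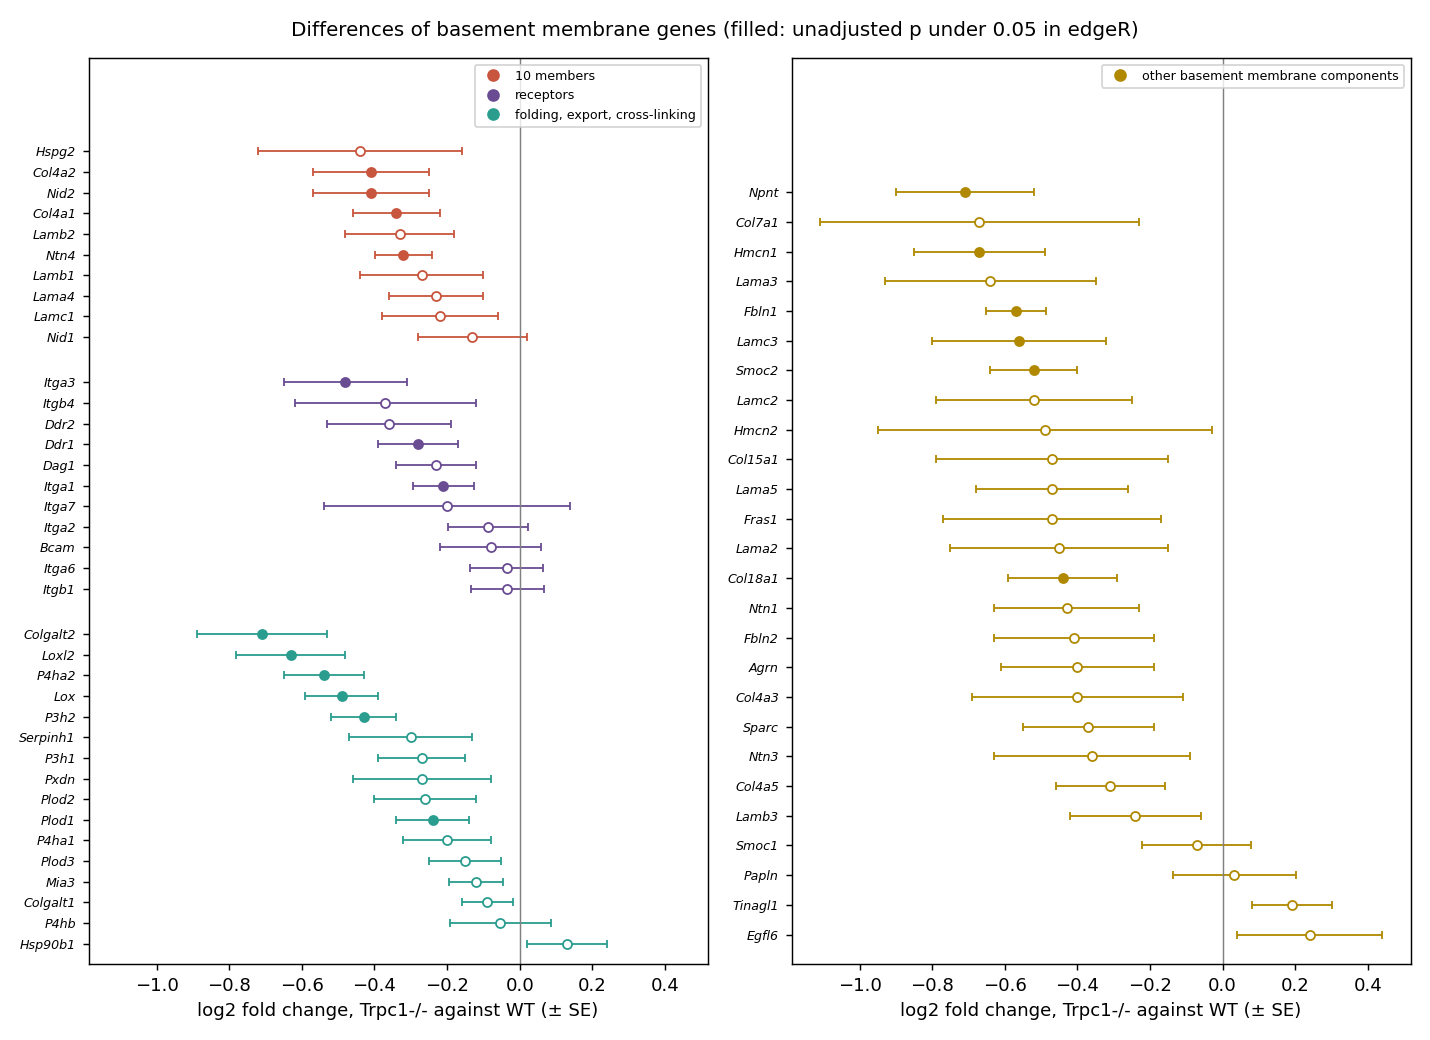
Log2 fold change between Trpc1-/- and WT samples (x axis) with its SE for the 10 members and for the tested receptors, collagen-processing genes, and other components. Filled points have an unadjusted P under 0.05 in edgeR, and 0 genes passed after adjustment. Nearly all points lie left of 0, and within the members they run from −0.44 for Hspg2 to −0.13 for Nid1.

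Markers of the cell types that carry basement membranes were read beside these values. The 15 endothelial markers summed to between 495 and 512 CPM in WT and between 441 and 491 CPM in *Trpc1-/-* samples, with 14 of 15 lower. Summed over 12 markers of pericytes and smooth muscle, it was 404 to 529 CPM in WT and 339 to 403 CPM in *Trpc1-/-* samples, and all 11 that were tested had a lower mean. The sums of neither list overlapped between the groups, and the log2 ratio of group means was −0.11 and −0.30, compared with −0.34 for the sum of the 10 members (797 to 1250 CPM in WT and 709 to 859 CPM in *Trpc1-/-* samples). Gene by gene, 3 of 15 endothelial and 2 of 11 tested pericyte and smooth muscle markers were lower without overlap, against 6.42% of all genes. Both edgeR and DESeq2 called 0 genes of either list. Osteoblast markers (14500 to 23900 and 11700 to 19700 CPM) and chondrocyte markers overlapped between the groups, and all 8 and all 10 of them had a lower mean. Of 6 tested Schwann cell markers, 5 had a lower mean (median logFC −0.26).

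For fat and skeletal muscle the means were higher. This held for all 10 adipocyte markers, with sums of 344 to 513 CPM in WT and 478 to 576 CPM in *Trpc1-/-* samples, and for all 10 markers of skeletal muscle (66.6 to 1290 and 386 to 1070 CPM). At an unadjusted *P* under 0.05 in edgeR, 4 adipocyte and 0 muscle markers were higher, against 4.51% of all genes, and 0 of either list passed after adjustment. The log2 ratio of the muscle sums was 0.64 with all samples and 2.06 without WT replicate 1. The 10 erythroid markers, of cells that have no basement membrane, summed to between 13000 and 23800 CPM in WT and between 27400 and 37300 CPM in *Trpc1-/-* samples. The part of any of these lists in the differences of the 10 members was not tested.

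**Figure D5:**
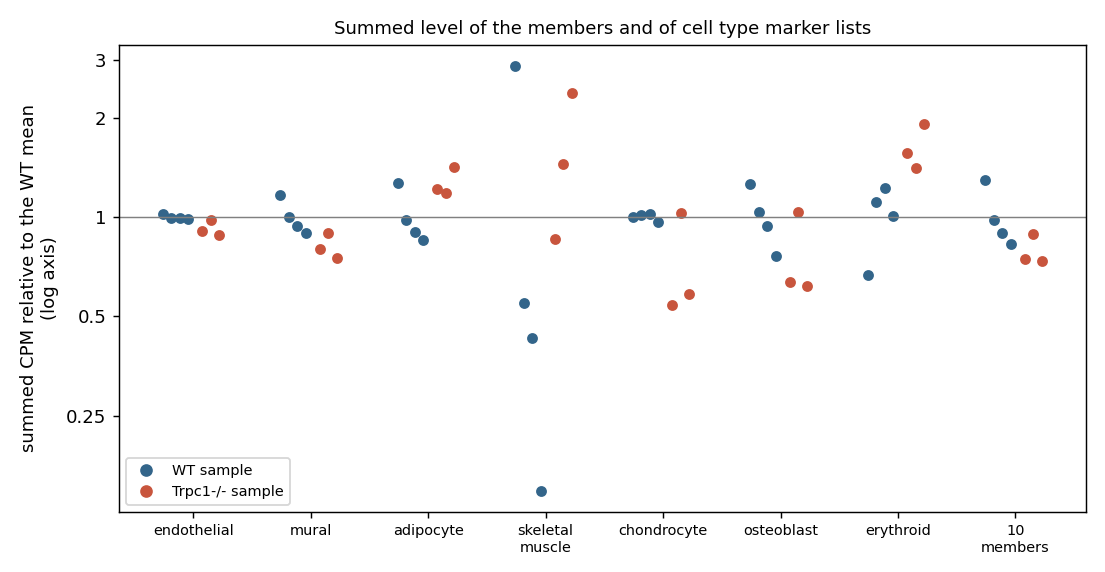
Summed CPM of the marker lists named here, except the Schwann cell list, and of the 10 members in each sample, relative to the mean of the 4 WT samples (log axis). Points are samples, blue for WT and red for Trpc1-/-. The members, the endothelial, and the mural lists are lower in most or all Trpc1-/- samples, the erythroid list is higher in all 3, and the muscle list spans the widest range, from 66.6 to 1290 CPM within WT.

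WT replicates 3 and 4 carry mouse numbers in the 1700s, and the other 5 samples, which include every *Trpc1-/-* pool, carry numbers in the 1300s. Within the 1300s alone the median logFC of the members was −0.43, 7 members had an unadjusted *P* under 0.05, where 13.2% of all genes did in either direction, and edgeR called 0. *Hspg2* (−0.70) and *Col4a2* (−0.61) had the largest logFC there and *Nid1* (−0.29) the smallest. In the 1300s the WT samples were replicates 1 and 2 alone, and 9 of the 10 members had their highest value in WT replicate 1. When only that sample was left out of the full set, the median logFC was −0.18. The 1700s hold WT samples only and give no comparison.

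By the same measure of likeness over the 7 samples, the genes closest to *Col4a1* were *Ano8*, *Tgfb3*, *Timp2*, *Wwtr1*, and *Pdgfra*, at a root mean square difference of 0.031 to 0.048. Closest to *Hspg2* were *Kcnma1*, Mir99ahg, *Zfp827*, *Sdk2*, and *Sox5* (0.031 to 0.073), and closest to *Ntn4* were *Gramd1a*, *Dgkq*, *Zfp276*, *Gramd3*, and *Pomgnt1* (0.032 to 0.049). The logFC of all 15 lay between −0.52 and −0.24. Genes picked for a like profile over both genotypes have a like logFC by that choice, so this range is no separate result. The lists had no gene in common and held no other member.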

How the data were processed

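Ribosomal RNA was depleted and stranded libraries were sequenced from both ends. The authors trimmed adapters with Cutadapt 2.5, aligned reads to GRCm38 with HISAT2 2.1.0, and estimated transcript coverage with StringTie 2.0.3, from which the deposited estimated counts per gene were made. The values were whole numbers, so rounding changed nothing, and they were not normalized. Per sample they summed to between 52142451 and 118254070. Exons of *Col4a1*, *Col4a2*, *Nid1*, and *Nid2* overlap genes on the other strand, and 0 members overlap a gene on their own strand. The way coverage was turned into counts could affect them.

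A gene was tested if 2 or more samples exceeded 1 CPM, in R 4.3.3 by edgeR 4.0.16 (quasi-likelihood, TMM, genotype alone, Benjamini-Hochberg adjustment over 16429 genes, threshold 0.05). DESeq2 1.42.0, limma-voom (limma 3.58.1), and the other alternatives are given with the closing limits. Standard errors were taken from the F statistic. Log2 CPM used a prior count of 1. Positions and lengths came from GENCODE M21. The fits were first tested on simulated data. Members and lists were chosen with earlier results of these data known. Named were all members, genes of the 3 further lists with an unadjusted *P* under 0.05 (at most 8 a list), *Trpc1*, and the 5 closest profiles of *Col4a1*, *Hspg2*, and *Ntn4*. Some further list genes were named after their values were seen. Replicates are separate pools of mice. No 2 samples of a genotype agreed within sampling noise. The floor of 3 counts covers counting error only, whereas the SE of a logFC includes the spread between samples. The summed level of the Schwann cell markers is not reported here.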

Additional observations from a re-analysis of the deposited data

Results flagged for a closer look

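Among the 4 WT samples, 38 values were checked for a sample far from the others by Dixon's ratio, the gap to the nearest sample divided by the whole range and set against its 95% critical value. Chance gives about 1 such value in 20, and 4 were found, all of them for WT replicate 1. *Hspg2* stood at 448 CPM there and between 228 and 263 CPM in the other WT samples (ratio 0.841). *Nid2*, the one member that was not highest in this sample, stood at 23.9 CPM against 25.1 to 25.3 CPM (ratio 0.881), a small distance in a group with a very narrow range. The skeletal muscle markers summed to 1290 CPM in it and to between 66.6 and 247 CPM in the others (ratio 0.853), and the endothelial markers to 512 CPM against 495 to 497 CPM (ratio 0.860).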

How the results depend on the processing

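The logFC of the 10 members was below 0 in 228 of 230 alternative values. The 2 above 0 were those of *Nid1* without WT replicate 1, 0.011 in edgeR and 0.014 in DESeq2 (with one sample left out in edgeR its range was −0.20 to 0.011). Over all genes edgeR called 0 (49 without WT replicate 1) and DESeq2 called 294 (37 without *Trpc1-/-* replicate 3 to 890 without WT replicate 1). EdgeR called 0 members under every alternative, limma-voom called 0 in its single fit, and DESeq2 called 1, or between 0 and 2 with one sample left out, a set of fits chosen after seeing the data (*Ntn4* without WT replicate 1, *Ntn4* and *Col4a1* without WT replicate 4, *Nid2* without *Trpc1-/-* replicate 2). The share of all genes at an unadjusted *P* under 0.05, 10.0%, was 17.6% with the mouse number series as a covariate, 13.2% in the 1300s alone, and 4.35% to 16.9% with one sample left out. The 4 members at an unadjusted *P* under 0.05 became 8 with the covariate and 7 in the 1300s alone, and between 1 (without WT replicate 2 or *Trpc1-/-* replicate 3) and 6 with one sample left out. The 2 members without overlap became 1 with no filter on low counts, 7 in the 1300s alone, and between 2 and 6 with one sample left out (6 without WT replicate 4 or *Trpc1-/-* replicate 2). Groups of fewer samples separate more easily. The share of all genes without overlap, 6.42% for lower values, was taken in the main fit only, so these counts cannot be read against it. The median logFC ranged from −0.39 to −0.18 with one sample left out. The 15 other basement membrane genes at an unadjusted *P* under 0.05 became 29 with the covariate, 28 in the 1300s alone, and between 9 and 20 with one sample left out. The longest transcript as the length moved the mean ratio over all samples of *Col4a1* to *Col4a2* from 1.67 to 1.83, of *Lamb1* to *Lamb2* from 0.353 to 0.560, and of both to *Lamc1* from 1.94 to 2.23. The log2 ratio of the chondrocyte marker sums, −0.478, ranged from −0.829 without *Trpc1-/-* replicate 2 to −0.31 without *Trpc1-/-* replicate 1. The cause of these shifts was not tested.

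Same-numbered samples did not deviate together (correlations of −0.348, −0.205, and −0.0439 across genes), so the numbers were not taken to pair the samples. When the replicate block was added to the edgeR fit (WT replicate 4 left out), 0 members were called and the median logFC was −0.39. In that fit 6 members were lower at an unadjusted *P* under 0.05, a level that 5.93% of all genes reached in either direction. The groups did not overlap for 6 members, and the share of all genes without overlap was not taken for this smaller set of samples.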
